A study of Homo sapiens with 12 samples.

Results

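The integrated stress response regulators examined here were 10 genes: the transcription factors ATF4, ATF3, ATF5, DDIT3, CEBPB and CEBPG, the pseudokinase gene TRIB3, the effector genes CHAC1 and SESN2, and PPP1R15A, which encodes the feedback phosphatase subunit. They were taken by annotated symbol from a table of 33297 transcript clusters, in which 18417 genes had a cluster of their own, and each of the 10 was found. ATF4 had 2 clusters, of which the brighter was used, so that 11 clusters carry the 10 genes. The genes were chosen on these same arrays, because the ATF4 response was higher than in siNTC after knockdown of WDR5, EED, RNF2, or EED and RNF2 together. Their values in those 4 knockdowns against siNTC are therefore given as a description with no test, and the same holds against siSETD2, where the same knockdown arrays stand on one side. Tests are given for siSETD2 against siNTC and for the differences among the 4 knockdowns. The choice left siSETD2 out of the knockdowns with a rise, so a lack of rise there is a description as well. The differences among the 4 knockdowns were not used to choose the genes, but their arrays were.

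The cells were NCCIT, a human embryonal carcinoma line with pluripotent character. Each of 6 conditions had 2 Affymetrix Human Gene ST arrays: knockdown by siRNA of WDR5 (siWDR5), of EED (siEED), of RNF2 (siRNF2), of EED with RNF2 (siEED+RNF2) and of SETD2 (siSETD2), and a control siRNA without a target (siNTC). WDR5 is a shared subunit of the H3K4 methyltransferase complexes, EED a subunit of PRC2, RNF2 the catalytic E3 ligase of PRC1, and SETD2 an H3K36 methyltransferase. By the methods, each siRNA was a pool of individual siRNAs, transfected on consecutive days before harvest, and the dual knockdown received both pools with more transfection reagent than a single knockdown. The siRNA against SETD2 is not described in the text of the study. All groups, siNTC included, are the same line under siRNA transfection, and no untransfected cells are in the series. The siNTC arrays are labelled a re-analysis, neither the labels nor the methods give run dates, and nothing says whether the arrays of a condition came from separate cultures, so that the p-values measure only the spread between these arrays, which may be technical.

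The integrated stress response begins when one of several kinases, which sense amino acid shortage, unfolded protein in the endoplasmic reticulum, double-stranded RNA or haem deficiency, phosphorylates the translation initiation factor eIF2. General translation falls, while the mRNAs of ATF4, ATF5 and DDIT3 are translated better because of upstream open reading frames. ATF4 then binds, often as a heterodimer with a C/EBP protein, to composite C/EBP-ATF response elements in genes of amino acid metabolism, in other transcription factor genes and in genes that restrain the response. Arrays measure mRNA, so the translational step itself was not observed, and fewer responding cells and less RNA per cell cannot be told apart in these bulk samples.

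The promoters of the 10 genes were searched for such elements. RefSeq promoter sequences (GRCh38.p14) were found for 10 of the 10 genes with 19 annotated starts, and the 250 bases before each start were read on both strands. TGATGNAA, the C/EBP-ATF response element, occurred before a start of 3 of the 10 genes, ATF3, CEBPG and CHAC1, and in 3.12% of 14239 genes searched in the same way (2.31% of 20109 starts). TGACGTCA, the cyclic AMP response element that ATF and CREB proteins bind, occurred only before PPP1R15A among the 10, and in 2.83% of all genes. The endoplasmic reticulum stress response element, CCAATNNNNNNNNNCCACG, occurred before 0 of the 10 and in 0.13% of all genes. The 2 shorter motifs do not overlap each other at any site printed here. The 4 sites are shown with 10 bases on each side, the motif in capitals and each read along the plus strand, on which all 4 genes lie.
ATF3, chr1:212565206-212565233, motif at -191 to -184 from the start: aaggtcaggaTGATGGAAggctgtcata
CEBPG, chr19:33374061-33374088, motif at -42 to -35 from the second start: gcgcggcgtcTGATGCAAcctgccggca
CHAC1, chr15:40953252-40953279, motif at -209 to -202 from the start: tcccctgccgTTGCATCActcctgccag
PPP1R15A, chr19:48872353-48872380, motif at -58 to -51 from the start: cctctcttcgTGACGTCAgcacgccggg
The CHAC1 site is TGATGCAA on the opposite strand, the same letters as in CEBPG, and ATF3 differs from them by having TGATGGAA. A match describes the letters only, and its absence from these windows says nothing about sites elsewhere. Genes with more annotated starts had more windows searched, which the shares per gene do not correct for.

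Values are log2 intensities as deposited. Array medians lay between 6.29 and 6.36, and replicate arrays correlated at 0.996 to 0.997. Of the siRNA targets, WDR5, EED and SETD2 were low in the arrays labelled for them, and RNF2 was not analysed here, so that the siRNF2 label was not checked by its target. WDR5 was lower than siNTC by a log2 difference of -1.21 after siWDR5, EED by -1.29 after siEED and -1.61 after siEED+RNF2, and SETD2 by -1.75 after siSETD2. EED also fell by 0.66 after siRNF2, and differed by -0.54 after siWDR5 and -0.42 after siSETD2, both under the fold limit of 1.5. WDR5 lay above siNTC in every other knockdown, furthest after siEED+RNF2 (10.09 and 10.08, against 9.48 and 9.58). SETD2 was at 10.28 and 10.3 after siEED+RNF2, against 10.78 and 10.81 in siNTC. The 7 pluripotency markers measured (SOX2, LIN28A, DPPA4, SALL4, L1TD1, PRDM14 and ZFP42) lay between 10.3 and 12.84 over the 12 arrays. They moved with some conditions: LIN28A fell after siWDR5 (by 0.68), L1TD1 fell after siEED+RNF2 (by 1.08), and DPPA4 (0.59, not called with arrays centred on the median over genes) and L1TD1 (0.67) rose after siSETD2. At an unadjusted p under 0.05, 2, 5, 4, 3 and 0 of the 7 were lower than in siNTC after siWDR5, siEED, siRNF2, siEED+RNF2 and siSETD2, where 24.2%, 24.5%, 27.1%, 25.4% and 21.1% of all genes were. The part of these shifts in the regulators' values was not tested. The 11 markers of other cells stayed between 4.12 and 6.34, with 0 of 11 called in any knockdown against siNTC by limma and at most 4 lower and 1 higher at an unadjusted p under 0.05. PTPRC, CD3E and ALB, which define blood cells and hepatocytes, did not exceed 4.89.

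ATF4, the central transcription factor of the pathway, had the smallest range of the 10 genes. Its log2 values were 11.69 and 11.79 after siWDR5, 11.54 and 11.59 after siEED, 11.65 and 11.71 after siRNF2, 11.86 and 11.81 after siEED+RNF2, and 11.43 and 11.36 after siSETD2, against 11.36 and 11.36 in siNTC. Every array of the 4 knockdowns lay above every siSETD2 and siNTC array, but by little. The mean difference from siNTC was 0.38 after siWDR5, 0.20 after siEED, 0.32 after siRNF2 and 0.48 after siEED+RNF2, or 1.15-fold to 1.39-fold, so ATF4 mRNA stayed under a fold of 1.5 in all 4 knockdowns. The dimmer ATF4 cluster gave 0.42, 0.23, 0.18 and 0.31 in the same knockdowns, which keeps the direction and places siWDR5 highest.

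ATF5, a related factor whose mRNA is under the same kind of translational control, separated the knockdowns more widely. It had 7.84 and 7.80 after siWDR5, 8.28 and 8.48 after siEED, 8.67 and 8.80 after siRNF2, 8.42 and 8.21 after siEED+RNF2, and 7.34 and 7.51 after siSETD2, against 7.50 and 7.55 in siNTC. The siRNF2 arrays were the highest, the siEED and siEED+RNF2 arrays overlapped, and siWDR5 lay only 0.29 above siNTC.

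ATF3, which stress induces through ATF4 and which in turn acts on many of the same promoters, was 6.83 and 6.85 after siWDR5, 6.55 and 6.91 after siEED, 7.26 and 6.86 after siRNF2, 7.19 and 7.23 after siEED+RNF2, and 5.67 and 5.46 after siSETD2, against 5.65 and 5.47 in siNTC. The differences from siNTC were 1.28, 1.17, 1.5 and 1.65 after siWDR5, siEED, siRNF2 and siEED+RNF2, with the widest standard error of the 10 genes (0.14). The arrays of siEED and of siRNF2 were each spread over more than the gap to the next condition, so the order among the knockdowns is not resolved for ATF3.

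DDIT3 encodes CHOP, a factor that dimerises with C/EBP proteins and promotes cell death under lasting stress. It had 10.31 and 10.38 after siWDR5, 10.69 and 10.77 after siEED, 10.98 and 11.18 after siRNF2, 10.95 and 10.91 after siEED+RNF2, and 8.94 and 8.89 after siSETD2, against 9.05 and 9.10 in siNTC. Arrays of different conditions did not overlap for this gene. The order of the means was siRNF2, siEED+RNF2, siEED, siWDR5, siNTC and siSETD2, with folds over siNTC of 4.02, 3.62, 3.15 and 2.42 in the first 4.

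The C/EBP partners followed with smaller differences. CEBPB, which is also an inflammatory and metabolic factor, had 9.44 and 9.28 after siWDR5, 9.79 and 9.75 after siEED, 10.08 and 10.04 after siRNF2, 9.98 and 9.98 after siEED+RNF2, and 8.50 and 8.32 after siSETD2, against 8.93 and 8.90 in siNTC. Here siSETD2 and siNTC separated, with siSETD2 lower. CEBPG, a short C/EBP protein that pairs with ATF4 on amino acid response genes, had 9.15 and 9.09 after siWDR5, 9.36 and 9.38 after siEED, 9.81 and 9.73 after siRNF2, 9.40 and 9.39 after siEED+RNF2, and 8.67 and 8.71 after siSETD2, against 8.64 and 8.62 in siNTC. For CEBPG the siEED and siEED+RNF2 arrays lay within 0.04 of each other, and siRNF2 stood above both.

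Among the genes that restrain the response, TRIB3 had the widest spread between knockdowns of the 10. TRIB3 is a pseudokinase that binds ATF4 and CHOP and dampens their activity. It had 7.49 and 7.45 after siWDR5, 8.34 and 8.47 after siEED, 9.0 and 9.2 after siRNF2, 8.62 and 8.86 after siEED+RNF2, and 5.65 and 5.78 after siSETD2, against 6.17 and 6.11 in siNTC. No conditions overlapped, and the fold over siNTC was 2.51 after siWDR5, 4.81 after siEED, 7.80 after siRNF2 and 6.05 after siEED+RNF2. PPP1R15A encodes GADD34, which directs protein phosphatase 1 to eIF2 and so ends the translational block. It had 7.84 and 7.72 after siWDR5, 7.71 and 7.93 after siEED, 8.21 and 8.25 after siRNF2, 8.20 and 8.21 after siEED+RNF2, and 7.30 and 7.39 after siSETD2, against 7.33 and 7.30 in siNTC. PPP1R15A thus fell into 3 levels, with siRNF2 and siEED+RNF2 together at the top, siWDR5 and siEED overlapping in the middle, and siSETD2 and siNTC overlapping at the bottom.

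For CHAC1 and SESN2, unlike TRIB3, the means of the 4 knockdowns lay within 0.43 and 0.31 of one another. CHAC1, an enzyme that breaks down glutathione, had 10.43 and 10.31 after siWDR5, 10.66 and 10.57 after siEED, 10.67 and 10.70 after siRNF2, 10.71 and 10.89 after siEED+RNF2, and 7.44 and 7.46 after siSETD2, against 8.04 and 8.05 in siNTC. Its folds over siNTC were 5.01, 5.95, 6.24 and 6.76 after siWDR5, siEED, siRNF2 and siEED+RNF2. SESN2, a leucine sensor that holds back mTORC1, had 9.60 and 9.49 after siWDR5, 9.71 and 9.78 after siEED, 9.72 and 9.90 after siRNF2, 9.82 and 9.90 after siEED+RNF2, and 7.36 and 7.40 after siSETD2, against 7.49 and 7.36 in siNTC. Its folds over siNTC were 4.35, 4.98, 5.23 and 5.39 in the same order, and the arrays of siEED, siRNF2 and siEED+RNF2 overlapped or nearly touched.

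**Figure D1:**
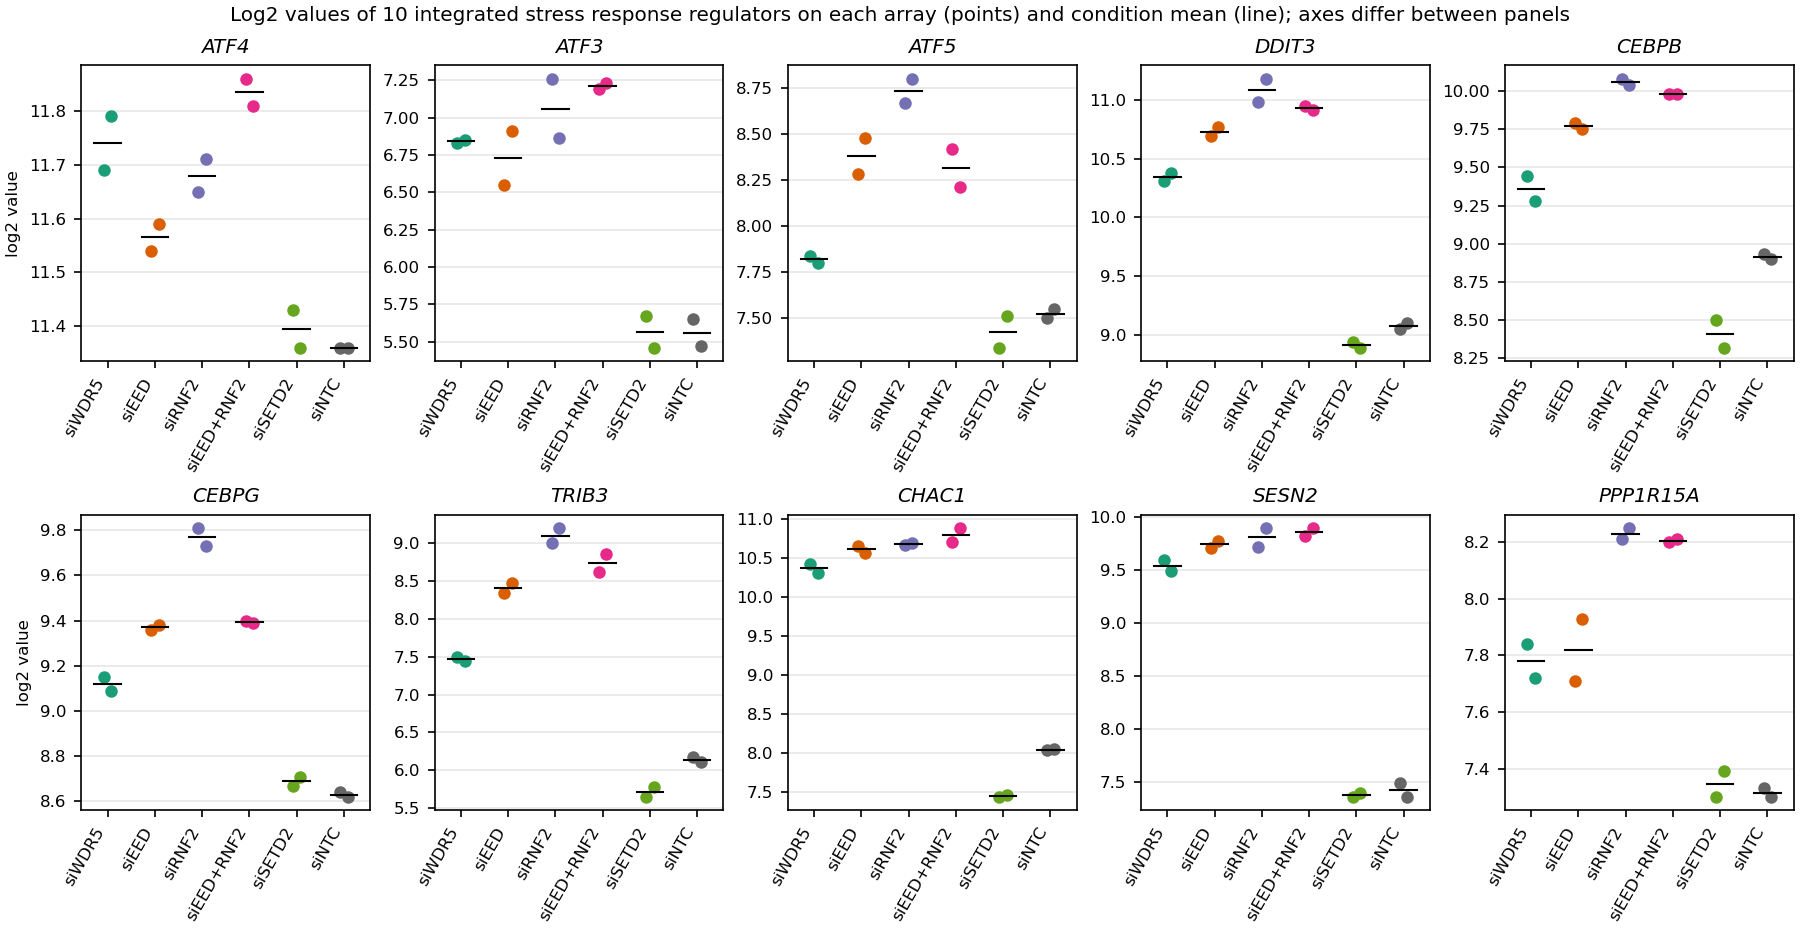
Log2 value of each of the 10 genes on each array (vertical axis, scaled per panel), by condition from siWDR5 at the left to siNTC at the right, with points for the 2 arrays and a line for their mean. In every panel the 8 arrays of siWDR5, siEED, siRNF2 and siEED+RNF2 lie above the 4 arrays of siSETD2 and siNTC.

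Counted over the 10 genes, a gene was called where the limma adjusted p was under 0.05 and the fold at least 1.5. Against siNTC, 5 of the 10 were higher by this rule after siWDR5, 8 after siEED, 9 after siRNF2 and 9 after siEED+RNF2, where 2.8%, 3.74%, 6.37% and 5.49% of all 18417 genes were. Since the choice of genes used these contrasts, nothing is read from the counts. ATF4 was outside the count in all 4 knockdowns, at most 1.39-fold, as were PPP1R15A after siEED (1.41-fold) and ATF5, CEBPB, CEBPG and PPP1R15A after siWDR5 (1.23-fold to 1.4-fold). The values nearest to the limit on the inside were 1.67-fold for CEBPG after siEED and 1.70-fold for CEBPG after siEED+RNF2. Without siEED replicate 1, PPP1R15A would also pass after siEED, with a log2 difference of 0.61. The median log2 difference over the 10 genes was 0.88 after siWDR5, 1.01 after siEED, 1.35 after siRNF2 and 1.36 after siEED+RNF2, beside -0.03, -0.03, -0.04 and -0.02 over all genes. The counts of the 10 genes were the same under quantile normalization and under both ways of centring the arrays, although centring on the median over genes changed the share of higher genes among all calls to 40.7% after siEED, 38.2% after siRNF2 and 35.3% after siEED+RNF2, where the deposited values gave 58.7%, 62.6% and 47.7%. Both knockdown arrays lay above both siNTC arrays for 10 of 10 genes in each knockdown, which was also so for 28.8% of all genes after siWDR5, 29.2% after siEED, 31.4% after siRNF2 and 33% after siEED+RNF2.

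Against siSETD2, a condition with a targeting siRNA, 6 of the 10 genes were higher by the same rule after siWDR5, 8 after siEED, 9 after siRNF2 and 9 after siEED+RNF2, where 2.86%, 3.85%, 5.49% and 4.89% of all genes were. Centring left these counts as they were and changed the share of higher calls to 44.9% after siEED, 39.2% after siRNF2 and 35.1% after siEED+RNF2, where the deposited values gave 61.3%, 63.4% and 46.9%. The medians over the 10 genes were 1.11, 1.26, 1.58 and 1.61. CEBPB was the gene added after siWDR5, at 1.93-fold over siSETD2. TRIB3 reached 10.5-fold over siSETD2 after siRNF2, and CHAC1 reached 10.2-fold after siEED+RNF2. These comparisons share the knockdown arrays with those against siNTC and are a description as well.

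**Figure D2:**
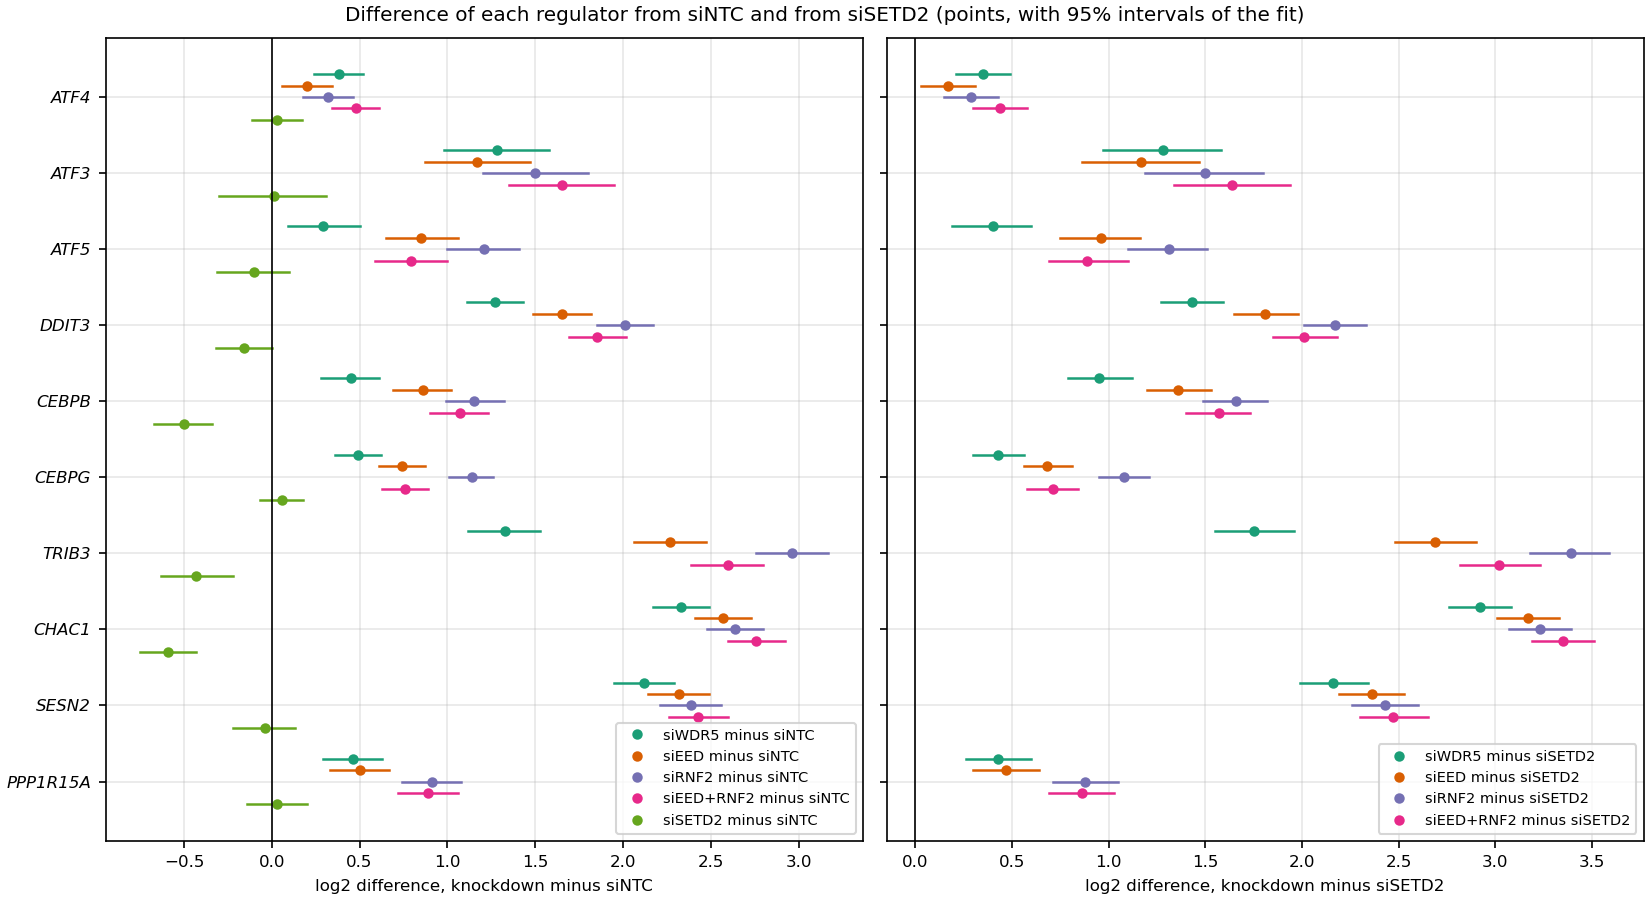
Log2 difference of each gene (horizontal axis) in each knockdown from siNTC (left panel, 5 knockdowns) and from siSETD2 (right panel, 4 knockdowns), with points for the difference and lines for the 95% interval of the fit. ATF4 lies between 0.20 and 0.48 above siNTC after siWDR5, siEED, siRNF2 and siEED+RNF2, TRIB3 spreads from 1.33 to 2.96, and the siSETD2 points lie near or below 0.

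Knockdown of SETD2 gave no call of a higher regulator. By the limma fit over all 12 arrays, 0 of 10 were called higher than in siNTC, where 2.64% of all genes were, and 0 of 10 were higher at an unadjusted p under 0.05, where 20.4% of all genes were. CHAC1 fell by 0.59 on the log2 scale after siSETD2 (SE 0.07, adjusted p = 9.4e-05), the 1 gene of the 10 called lower, where 3.18% of all genes were. CEBPB was lower by a difference of -0.50 (SE 0.08, adjusted p = 0.00036) and TRIB3 by -0.43 (SE 0.09, adjusted p = 0.0048), both short of the fold limit. For these 3 genes, and for DDIT3 at a difference of -0.16, both siSETD2 arrays lay below both siNTC arrays. For CEBPG, at 0.06, both lay above. The share of all genes so placed was not counted, so nothing is read from this. The 7 genes other than CHAC1, CEBPB and TRIB3 differed by -0.16 to 0.06 and gave limma adjusted p-values of 0.12 to 0.98. The 95% interval of the difference was -0.11 to 0.17 for ATF4 and -0.22 to 0.13 for SESN2. The wider interval of ATF3 ran from -0.30 to 0.31. The median over the 10 was -0.07. The CHAC1 call lies close to the fold limit and is lost when arrays are centred on the median over all transcript clusters (-0.57), and CEBPB joins it without siSETD2 replicate 1 (-0.59). This comparison uses the siNTC arrays that also entered the choice of the genes, and that choice left siSETD2 out of the knockdowns with a rise. The absence of higher calls is therefore a description.

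Comparisons between the knockdowns leave out siNTC, but their arrays entered the choice of the genes. The siWDR5 mean was the lowest of siWDR5, siEED, siRNF2 and siEED+RNF2 for 8 of the 10 genes, all but ATF4 and ATF3. For PPP1R15A siWDR5 lay only 0.04 below siEED, and above it under quantile normalization or centring on the median over genes. In siRNF2 against siWDR5, 5 of the 10 genes were higher, where 4.53% of all genes were: TRIB3 by 1.64 ± 0.09 (SE on the log2 scale, adjusted p = 4.8e-07), ATF5 by 0.91 ± 0.09 (adjusted p = 2.6e-05), DDIT3 by 0.74 ± 0.07 (adjusted p = 2.3e-05), CEBPB by 0.70 ± 0.08 (adjusted p = 3.6e-05) and CEBPG by 0.65 ± 0.06 (adjusted p = 1.1e-05). ATF4 did not follow, with a difference of -0.06 and a 95% interval of -0.20 to 0.08. CHAC1 and SESN2 differed by 0.32 and 0.27, past the adjusted p but under the fold limit. The siRNF2 arrays had a median over genes 0.13 above those of siWDR5, although the median of the differences of single genes was -0.01. With arrays centred on the median over genes TRIB3, ATF5 and DDIT3 were still called, and CEBPB (0.57) and CEBPG (0.52) were not. The share of higher genes among all calls was then 44.6% in place of 76.4%. Under quantile normalization that share was 63.8%, and 5 of the 10 genes were called.

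In siEED against siWDR5, 1 of the 10 was called higher, TRIB3 by 0.94 ± 0.09 (adjusted p = 4.2e-05), where 2.23% of all genes were. Without siEED replicate 1, ATF5 was called as well (0.66, against 0.56 with all arrays). ATF4 had a difference of -0.18 with an adjusted p of 0.069. In siEED+RNF2 against siWDR5, 2 of the 10 were called higher, TRIB3 by 1.27 ± 0.09 (adjusted p = 2e-06) and CEBPB by 0.62 ± 0.08 (adjusted p = 7.1e-05), where 3.31% of all genes were. DDIT3 was at 0.58, just short of the fold limit, and was called without siEED+RNF2 replicate 2, without siWDR5 replicate 2, under quantile normalization (0.62) and with arrays centred on the median over all transcript clusters (0.59). ATF5 was called without siEED+RNF2 replicate 2 (0.60), and CEBPB was not called without siWDR5 replicate 2 (0.54) or with arrays centred on the median over genes (0.53), where higher genes were 31.6% of all calls in place of 47.1%. With the same centring, siEED against siWDR5 had 48.6% higher calls in place of 67%, and TRIB3 was still its 1 call.

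In siRNF2 against siEED, TRIB3 was the 1 gene of the 10 called higher, by 0.70 ± 0.09 (adjusted p = 0.00091), where 0.793% of all genes were. CEBPG (0.40), ATF5 (0.35), DDIT3 (0.35), CEBPB (0.29) and PPP1R15A (0.41) had adjusted p-values of 0.0017 to 0.033 at folds under 1.5. CHAC1 and SESN2 differed by 0.07 each, with intervals of -0.09 to 0.23 and -0.10 to 0.24. TRIB3 was thus the gene of the 10 called in siRNF2 against siWDR5, in siEED against siWDR5 and in siRNF2 against siEED. ATF5, DDIT3, CEBPB and CEBPG also had a limma adjusted p under 0.05 in each of these. They passed the fold limit only in siRNF2 against siWDR5. At a fold of at least 2, TRIB3 was called only in siRNF2 against siWDR5. Centred on the median over genes, higher genes were 47.7% of the calls in this comparison in place of 62.9%.

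**Figure D3:**
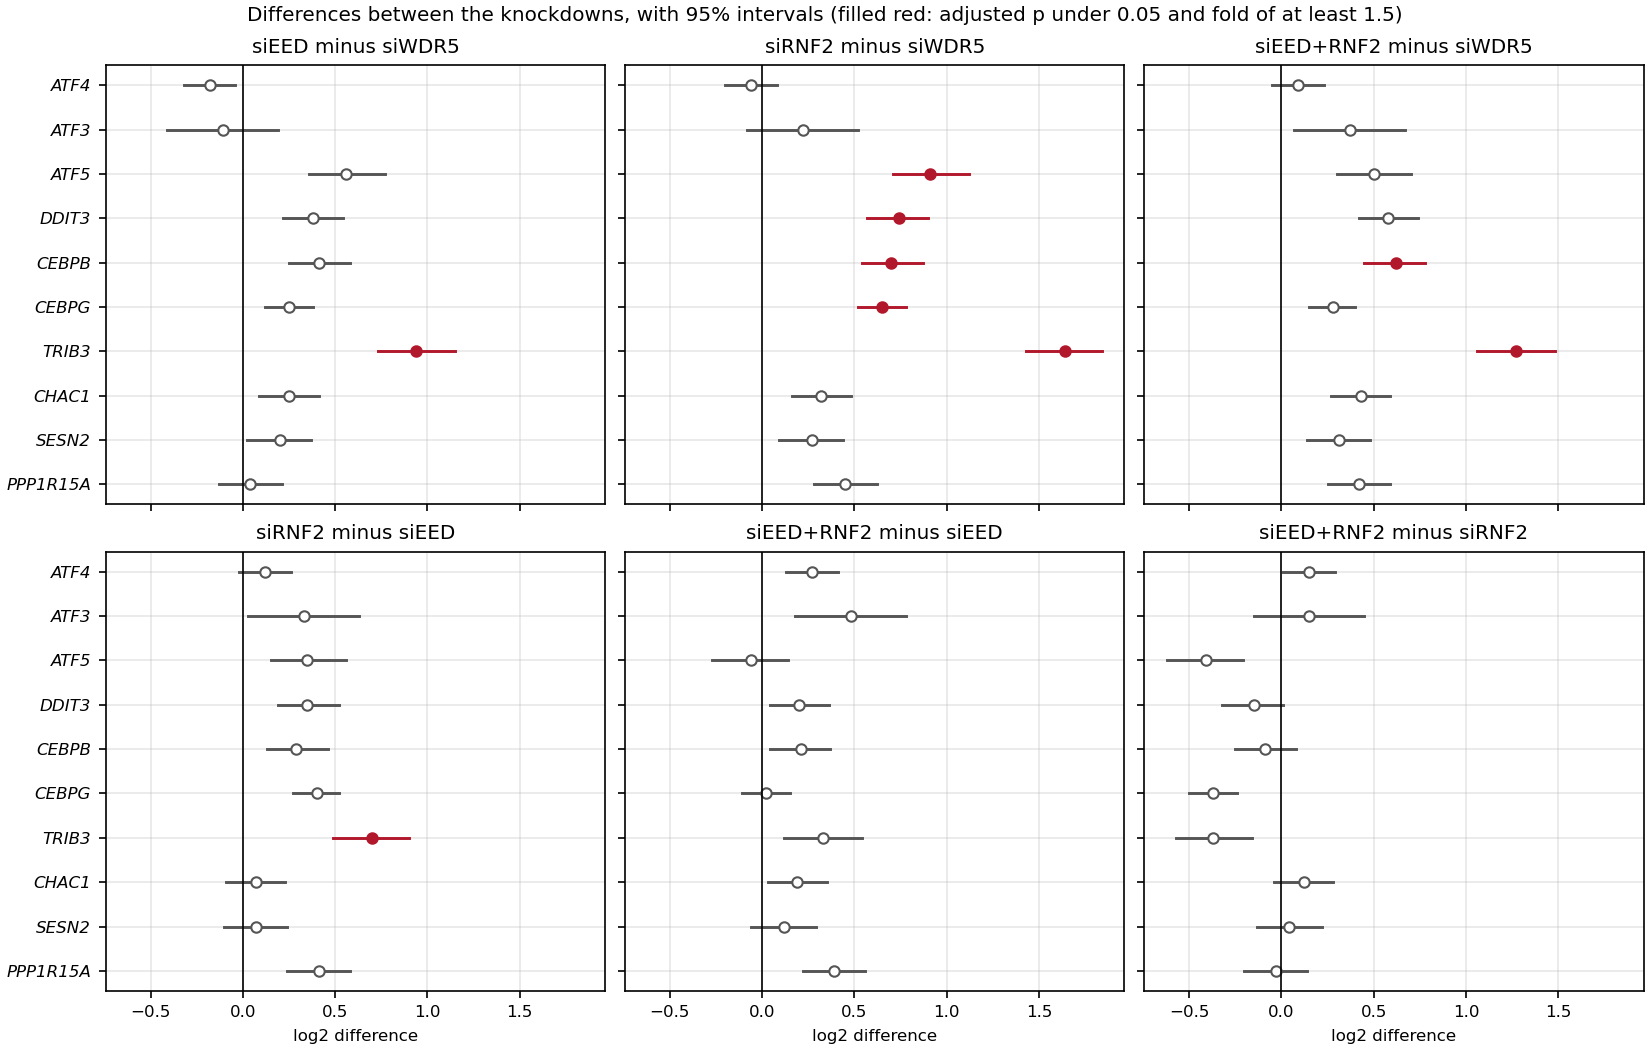
Log2 difference of each gene (horizontal axis) in each of the 6 comparisons between knockdowns, with points for the difference and lines for its 95% interval; filled red points passed the adjusted p of 0.05 and the fold of 1.5. TRIB3 is the gene filled in 4 panels, and no gene is filled in the 2 panels that set siEED+RNF2 against siEED and against siRNF2.

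No regulator passed the call rule between the dual knockdown and either single one. In siEED+RNF2 against siEED, limma called 0 of the 10 genes higher, where 0.157% of all genes were, although 7 of the 10 were higher at an unadjusted p under 0.05, where 14.3% of all genes were. PPP1R15A had the lowest adjusted p, 0.006, at a difference of 0.39 ± 0.08, and ATF3 differed by 0.48 ± 0.14 (adjusted p = 0.04). ATF3 was called without siEED replicate 2 (0.66). In siEED+RNF2 against siRNF2, limma called 0 of the 10 higher or lower, where 0.239% and 3.03% of all genes were. At an unadjusted p under 0.05, 1 of the 10 was higher and 3 were lower, where 13.6% and 16% of all genes were. The 3 lower genes were ATF5 (-0.41 ± 0.09, adjusted p = 0.009), CEBPG (-0.37 ± 0.06, adjusted p = 0.00092) and TRIB3 (-0.37 ± 0.09, adjusted p = 0.018), and the higher one was ATF4 (0.15 ± 0.06, adjusted p = 0.13). CHAC1 and SESN2 gave intervals of -0.04 to 0.28 and -0.13 to 0.22.

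Set against the sum of the single knockdowns (siEED+RNF2 plus siNTC, minus both singles), 8 of the 10 genes were lower by the call rule, where 7.43% of all genes were. This quantity contains siNTC and the arrays that chose the genes, so it is a description: a gene raised in each single knockdown and not raised further in the dual one has to be negative here. It was -2.63 for TRIB3, -2.46 for CHAC1 and -2.27 for SESN2, and -0.05 for ATF4, for which the dual knockdown (0.48) was close to the sum of siEED (0.20) and siRNF2 (0.32). The reagent dose was higher in the dual knockdown, and EED was at 7.93 and 7.82 after siEED+RNF2 and at 8.25 and 8.14 after siEED. Their part in these values was not tested.

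The 10 genes ran closely alike over the 12 arrays. The Pearson correlation of each with the mean of the other 9 was 0.84 for ATF4, 0.91 for ATF5 and 0.95 to 1 for the other 8 (ATF3, DDIT3, CEBPB, CEBPG, TRIB3, CHAC1, SESN2 and PPP1R15A). The points are 6 conditions with 2 arrays each, and all 10 genes share the step between the 4 knockdowns and siSETD2 or siNTC. The choice of the genes used that step, so the correlations and the mean below are a description with no test. The mean over the genes, each centred on its own mean, was 0.17 and 0.13 after siWDR5, 0.37 and 0.47 after siEED, 0.72 and 0.75 after siRNF2, 0.63 and 0.65 after siEED+RNF2, and -1.06 and -1.06 after siSETD2, against -0.87 and -0.91 in siNTC. The conditions did not overlap on this mean.

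Among other genes with an SD of at least 0.5 over the arrays, the 10 most like this mean were PCK2 (r = 0.998), INHBE (0.995), TSC22D3, ASNS, RPS6KA2 and PSPH (0.993 each), ULBP1 (0.992), CTH (0.991), and TNFRSF10B and SLC1A4 (0.99 each). PCK2, the mitochondrial PEP carboxykinase, averaged 8.73 after siWDR5, 9.28 after siEED, 9.87 after siRNF2, 9.69 after siEED+RNF2 and 5.91 after siSETD2, against 6.19 in siNTC. That is the order of conditions that TRIB3 has. ASNS makes asparagine, PSPH serine and CTH cysteine, SLC1A4 carries neutral amino acids, INHBE encodes an activin subunit, TNFRSF10B a death receptor and ULBP1 a ligand of the natural killer cell receptor NKG2D.

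Upstream of ATF4, the mRNAs for the kinases and for eIF2 itself had calls in both directions. Of 19 genes for the eIF2 kinases, eIF2, eIF2B, the phosphatase 1 catalytic subunits and related factors, 1 rose and 2 fell after siWDR5, 2 rose after siEED, 2 rose after siRNF2, and 1 rose and 1 fell after siEED+RNF2, with 0 called by limma after siSETD2, where 8 were higher and 3 lower at an unadjusted p under 0.05. Called higher after siWDR5, siEED, siRNF2 and siEED+RNF2 were 2.8%, 3.74%, 6.37% and 5.49% of all genes. Called lower were 3.22%, 2.63%, 3.81% and 6.02%. After siSETD2 these shares were 2.64% and 3.18%. With p not adjusted and the same cutoff, 8, 6, 4 and 7 of the 19 rose in the 4 knockdowns, and 6, 4, 5 and 5 fell. Genes falling by that cutoff made up 24.2%, 24.5%, 27.1% and 25.4% of all genes, and 21.1% after siSETD2. The matching share of rising genes was counted only for siSETD2 (20.4%), so the other rises have no background. The list's median difference lay between -0.02 and 0.10. IMPACT, which binds GCN1 and holds back the amino acid sensing kinase GCN2, rose by 0.77, 0.81, 1.01 and 0.69 after siWDR5, siEED, siRNF2 and siEED+RNF2, and differed by 0.35 after siSETD2. EIF2S2, the beta subunit of eIF2, rose by 0.59 after siEED and 0.69 after siRNF2, neither of which was called with arrays centred on the median over genes. EIF2AK4, which encodes GCN2, fell by 0.71 after siWDR5, and EIF2AK2, the double-stranded RNA sensor PKR, fell by 0.77 after siWDR5 and by 0.69 after siEED+RNF2. EIF2AK3, the kinase PERK of the endoplasmic reticulum, differed by 0.26, -0.01, -0.03 and -0.10 in the 4 knockdowns and was not called.

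Of 10 paralogs of these genes, 1 rose after siWDR5, 2 after siEED, 1 after siRNF2 and 1 after siEED+RNF2, beside 2.8%, 3.74%, 6.37% and 5.49% of all genes, and 1 fell after siSETD2, beside 3.18%. Their median differences were 0.06, 0.04, 0.03, 0.03 and -0.02. JDP2, the closest relative of ATF3, rose by 0.83 after siEED, 0.76 after siRNF2 and 0.87 after siEED+RNF2. SESN3 rose after siEED (0.97) and fell after siSETD2 (by 0.99), and TRIB2 rose after siWDR5 (0.82). PPP1R15B, the constitutive counterpart of PPP1R15A, differed by 0.12, 0.02, 0.05 and 0.01 after siWDR5, siEED, siRNF2 and siEED+RNF2. SESN1 (0.15, -0.02, -0.06 and 0.05), CHAC2 (-0.13, 0.04, 0.16 and -0.02), CEBPA, CEBPD, CEBPE and TRIB1 were not called in any of them, except that TRIB1, at -0.56 after siRNF2, was called lower there under quantile normalization and with arrays centred on the median over genes. Of 37 other bZIP factors, 4 rose after siWDR5, 5 rose and 1 fell after siEED, 8 rose and 1 fell after siRNF2, 5 rose and 2 fell after siEED+RNF2, and 1 rose and 3 fell after siSETD2. Of all genes, 2.8%, 3.74%, 6.37%, 5.49% and 2.64% were called higher in these conditions, and 3.22%, 2.63%, 3.81%, 6.02% and 3.18% lower. With arrays centred on the median over genes the bZIP counts for siRNF2 were 6 and 2, and those for siEED+RNF2 were 3 and 3. CREB3L1 rose by 0.84, 1.34 and 1.23 after siEED, siRNF2 and siEED+RNF2, and NFE2L1, a regulator of proteasome genes, rose by 0.66, 0.91, 1.06 and 1.00 in the 4 knockdowns. FOS fell by 0.80, 0.78 and 0.93 after siEED, siRNF2 and siEED+RNF2. NFE2L3 rose after siSETD2 as well (1.19).

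Downstream, known ATF4 targets were higher in the same 4 knockdowns. The ATF4 response in these contrasts is what chose the 10 genes, so these counts are a description too. Of all genes, 2.8%, 3.74%, 6.37% and 5.49% were called higher after siWDR5, siEED, siRNF2 and siEED+RNF2. After siSETD2, 2.64% were called higher and 3.18% lower. Of 27 measured target enzymes and transporters, 17 passed the rule as higher after siWDR5, 20 after siEED, 22 after siRNF2 and 23 after siEED+RNF2, with medians of 0.79, 1.04, 1.14 and 0.95, and 0 were higher and 1 lower after siSETD2 (median 0.02). The largest were PCK2 (2.54 to 3.68), ALDH1L2 (1.85 to 2.71), SLC1A4 (1.64 to 2.96) and SLC7A5 (1.65 to 2.56). Of 8 stress-induced targets, 7 passed in each of the 4 knockdowns, all but FGF21 (0.07 to 0.22). GDF15, a secreted stress hormone, differed by 1.09 after siWDR5, 2.60 after siEED, 4.11 after siRNF2 and 3.24 after siEED+RNF2. After siSETD2, DDIT4, a brake on mTORC1, rose (1.48) and VLDLR fell by 0.85, and GDF15 was called higher only with arrays centred on the median over all transcript clusters. NUPR1 (0.71 to 2.37), INHBE (2.47 to 4.19), STC2 (1.47 to 1.77), ADM2 (0.62 to 0.99), VLDLR (1.51 to 1.76) and DDIT4 (2.56 to 3.35) made up the rest in the 4 knockdowns.

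The targets were also compared between knockdowns. These comparisons use no siNTC array, but their arrays entered the choice through the ATF4 response. The lists, too, were chosen with earlier results of these data known, so the p-values are not an independent check. Of the 27 enzymes and transporters, 2 were called higher in siEED against siWDR5, 8 in siRNF2 against siWDR5, 6 in siEED+RNF2 against siWDR5, 1 in siRNF2 against siEED and 0 in siEED+RNF2 against siEED, beside 2.23%, 4.53%, 3.31%, 0.793% and 0.157% of all genes. Of the 8 stress-induced targets, 3, 4, 4, 2 and 1 were called higher in the same comparisons. None of either list was called lower in them, where 1.1%, 1.4%, 3.71%, 0.467% and 2.75% of all genes were. With shares this low, nothing is read from the lack of lower calls. At an unadjusted p under 0.05, 12 of the 27 were higher and 4 lower in siEED+RNF2 against siEED, where 14.3% of all genes were higher. The matching share of lower genes was not counted. In siRNF2 against siWDR5, GDF15 differed by 3.02 ± 0.09 (adjusted p = 4e-09). In siEED+RNF2 against siRNF2, 0 of 27 were called by limma (1 higher and 9 lower at an unadjusted p under 0.05), and GDF15 was the 1 of 8 that fell (by 0.86 ± 0.09, adjusted p = 3.7e-05). Of all genes, 3.03% were called lower there, and 13.6% were higher and 16% lower at an unadjusted p under 0.05.

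Other stress pathways had calls in both directions. Of 16 targets of ATF6 and XBP1, the branches of the unfolded protein response that do not pass through eIF2, 1 rose after siWDR5, 1 rose and 2 fell after siEED, 2 rose and 2 fell after siRNF2, 1 rose and 2 fell after siEED+RNF2, and 1 rose after siSETD2. The shares of all genes called higher were 2.8%, 3.74%, 6.37%, 5.49% and 2.64% in these conditions, and those called lower 3.22%, 2.63%, 3.81%, 6.02% and 3.18%. The same shares stand beside the counts of CHOP targets, p53 targets and interferon-stimulated genes below. The list's medians were -0.08, -0.18, -0.18, -0.14 and 0.15, and 6, 10, 9, 7 and 1 of the 16 were lower at an unadjusted p under 0.05, beside the 24.2%, 24.5%, 27.1%, 25.4% and 21.1% of all genes given above. By the same cutoff, 4, 2, 3, 4 and 8 of the 16 were higher. Among these conditions the share of all genes higher was counted only for siSETD2, at 20.4%. HERPUD1, which ATF4 also induces, was the gene that rose in each of the 4 knockdowns (0.79, 1.13, 1.10 and 1.21), while the chaperone gene HSP90B1 fell by 0.59 after siRNF2 and by 0.78 after siEED+RNF2. The calls near the fold limit moved with the scaling. After siRNF2, 1 rose and 4 fell with arrays centred on the median over genes, 1 rose and 1 fell under quantile normalization, and 2 rose and 0 fell with arrays centred on the median over all transcript clusters, where HSP90B1 and SDF2L1 were no longer called. With that last centring 1 rose and 0 fell after siEED, where DNAJB9 and SDF2L1 had fallen by 0.59 and 0.60. SEL1L rose after siRNF2 (0.63, not called under quantile normalization or with arrays centred on the median over genes) and after siSETD2 (0.60), and DNAJC3 fell after siEED+RNF2 (by 0.76). Of 4 target genes of CHOP, TNFRSF10B rose in the 4 knockdowns (0.77, 0.96, 1.34 and 1.24), and BBC3 (0.17 to 0.31), ERO1A (-0.23 to 0.07) and BCL2L11 (-0.09 to 0.47) were not called. Of 14 p53 targets, 1 rose after siWDR5, 2 rose after siEED, 2 rose and 1 fell after siRNF2, 1 rose and 2 fell after siEED+RNF2, and 1 rose after siSETD2. TP53INP1 was higher in all 5 knockdowns (0.65 to 1.27), ZMAT3 after siEED (0.62, not called with arrays centred on the median over genes) and siRNF2 (0.72), whereas RRM2B fell by 0.61 after siRNF2 (not called with arrays centred on the median over all transcript clusters, where XPC at 0.58 was called higher) and by 1.00 after siEED+RNF2, and MDM2 by 0.77 after siEED+RNF2. Of 10 interferon-stimulated genes, 0 were called by limma after siWDR5, siEED and siRNF2. At an unadjusted p under 0.05, 2, 1 and 2 were lower there, beside 24.2%, 24.5% and 27.1% of all genes, and 0, 0 and 1 were higher. RIGI was called lower after siEED with arrays centred on the median over genes. RIGI, the sensor of viral RNA, fell after siEED+RNF2 (by 0.97) and after siSETD2 (by 0.60, not called under quantile normalization or with arrays centred on all clusters).

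**Figure D4:**
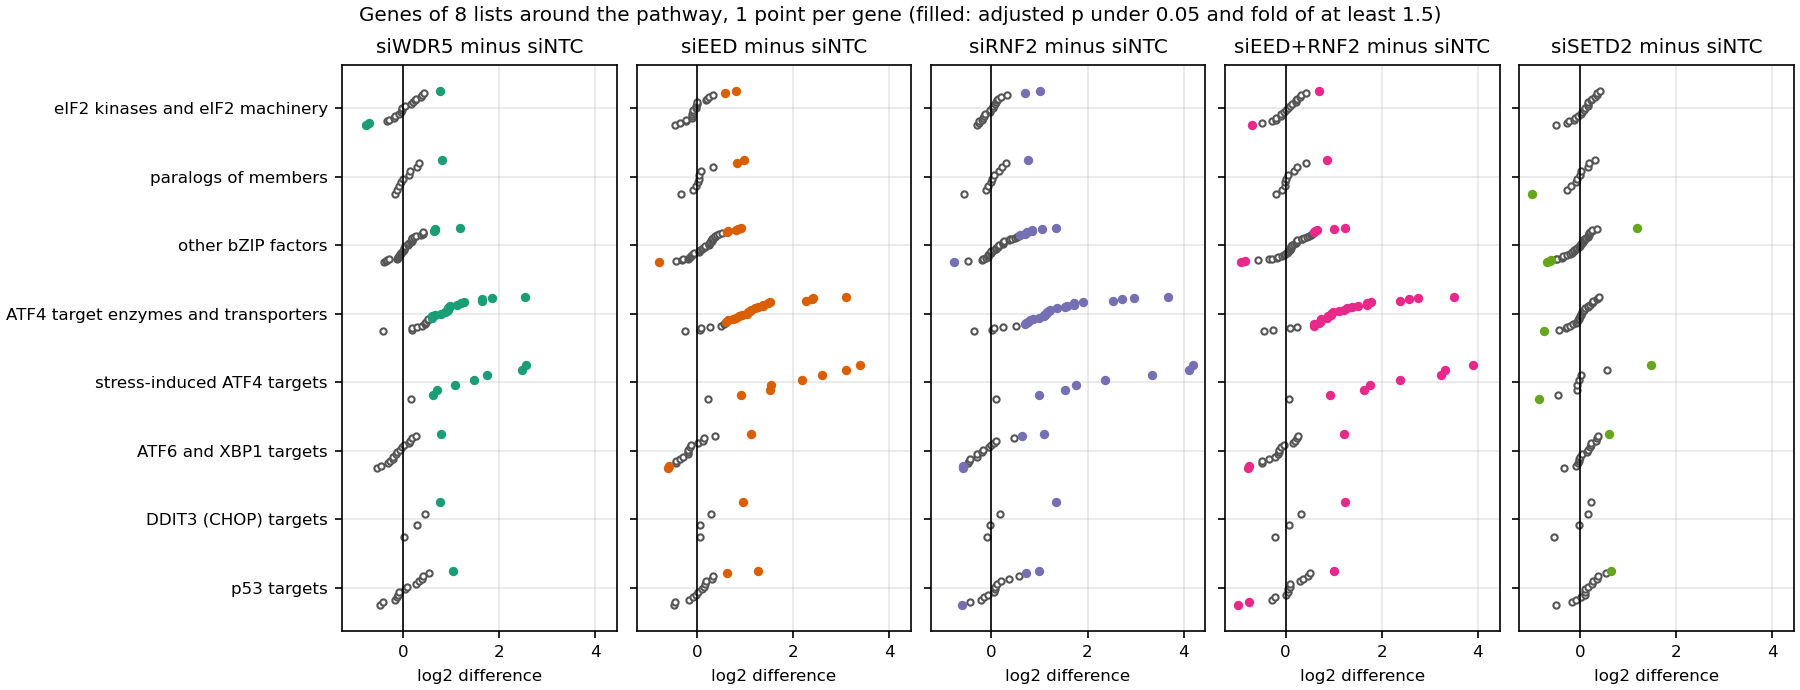
Log2 difference from siNTC (horizontal axis) of each gene of 8 lists (vertical axis) in the 5 knockdowns, 1 point per gene; filled points passed the adjusted p of 0.05 and the fold of 1.5. The 2 lists of ATF4 targets hold 17 to 23 and 7 filled points to the right of 0 after siWDR5, siEED, siRNF2 and siEED+RNF2, and 0 and 1 after siSETD2.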

How the data were processed

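The members and gene lists were chosen with earlier results of these data known. The authors deposited 1 table of log2 intensities; GCRMA and Partek are named in the submitters' notes, with versions not given in the sources used here, so background correction and normalization between arrays preceded deposit. Value columns not used numbered 0. Of 33297 clusters, 12083 had no gene listed, 1754 had several genes and were not named, and 19460 had 1 (19429 matched by gene number to RefSeq); the brightest cluster stood for each of 769 genes with several. A coefficient per condition was estimated from the 12 arrays together (limma 3.58.1, R 4.3.3, 6 residual degrees of freedom), with Benjamini-Hochberg adjustment over 18417 genes. The fit was tested on simulated data. The number of arrays limits the precision. Named genes were the 10 members, the siRNA targets, the 10 genes most like the members' mean, all genes of lists of up to 10 and, of longer lists, up to 4 called genes with the largest difference from siNTC. Replicate numbers did not pair arrays: deviations from condition means correlated at -0.11 to 0.16 over 15 pairs of conditions. Figures used matplotlib 3.10.9.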

Additional observations from a re-analysis of the deposited data

How the results depend on the processing

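Of 3840 single values recomputed, 3736 kept their direction and side of the threshold, 28 lost and 55 gained a call, and 21 changed sign, none of them called under either setting. Under quantile normalization the sign changed for ATF3 in siSETD2 against siNTC (-0.02), PPP1R15A in siEED against siWDR5 (-0.01) and PPP1R15A in siEED+RNF2 against siRNF2 (0.03). Centred on the median over genes it changed for the same 3 (0 after rounding, -0.05 and 0.02) and for ATF4 in the interaction (0.08), and with the mean of a gene's clusters for ATF4 in siEED+RNF2 against siWDR5 (-0.01). Leaving out 1 array at a time changed it in siSETD2 against siNTC for ATF4 (-0.01 to 0.07), ATF3 (-0.10 to 0.11), SESN2 (-0.11 to 0.02) and PPP1R15A (-0.01 to 0.07), in siEED against siWDR5 for ATF3 (-0.29 to 0.07) and PPP1R15A (-0.07 to 0.14), in siRNF2 against siEED for SESN2 (-0.02 to 0.16), in siEED+RNF2 against siEED for ATF5 (-0.17 to 0.04), and in siEED+RNF2 against siRNF2 for ATF3 (-0.05 to 0.35) and SESN2 (-0.05 to 0.13). Without a fold threshold the members called higher were 10 in siWDR5 against siNTC, 10 in siWDR5 against siSETD2, 6 in siEED against siWDR5, 8 in siRNF2 against siWDR5, 8 in siEED+RNF2 against siWDR5, 6 in siRNF2 against siEED and 4 in siEED+RNF2 against siEED, and those called lower were 3 in siSETD2 against siNTC and 3 in siEED+RNF2 against siRNF2, so most changes came from this limit. At a fold of at least 2, members called higher were 5 in siEED against siNTC, 0 in siEED against siWDR5, 1 in siRNF2 against siWDR5, 1 in siEED+RNF2 against siWDR5 and 0 in siRNF2 against siEED, and 0 were called lower in siSETD2 against siNTC. Centred on the median over genes, 3 members were higher in siRNF2 against siWDR5 and 1 in siEED+RNF2 against siWDR5, where quantile normalization and centring by every transcript cluster gave 3 in place of 2. Centring by the median of every transcript cluster, a setting chosen after seeing the data, left 0 lower in siSETD2 against siNTC. Leaving out 1 array at a time gave 1 to 2 lower in siSETD2 against siNTC, and as higher 1 to 2 in siEED against siWDR5, 2 to 4 in siEED+RNF2 against siWDR5 and 0 to 1 in siEED+RNF2 against siEED. With the replicate block, the counts of members called stayed the same, for example 5 in siRNF2 against siWDR5; the numbers do not pair the arrays. With 1 array left in a condition, that array is assumed to vary like the others. GCRMA's effect on dim genes such as ATF3 could not be varied.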
